A study of Mus musculus with 9 samples.

Results

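Cholesterol efflux, brain apolipoproteins and the liver X receptors (LXRs) were followed in mouse cortex through 10 genes, chosen by name: the receptors Nr1h2 and Nr1h3, the transporters Abca1, Abcg1 and Abcg4, the apolipoproteins Apoe and Apod, the lipoprotein enzymes Lcat and Lpl, and the ubiquitin ligase Mylip. These are 10 of the 34714 gene symbols in the deposited table, and all 10 had enough counts to be among the 18644 genes tested. RNA of the cortex, enriched for poly(A), was sequenced from 9 mouse brains. Of these, 3 came from mice with experimental autoimmune encephalomyelitis (EAE) given the gold nanocluster Au18(L-NIBC)14 (here treated EAE), 3 from mice with EAE and 3 from naive mice. EAE is a model of multiple sclerosis in which the immune system attacks myelin. The sources used here give no strain, sex, age, immunogen, dose or time of sampling, and no vehicle for the EAE mice.

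Libraries held between 26972179 and 45243553 counts. Values are CPM, which set each count against the size of its library, with sizes scaled by the TMM method of edgeR. Summed markers of cortical excitatory neurons were between 1413 and 1855 CPM in all libraries. They were at 1782 to 1855 CPM in treated EAE, 1413 to 1628 CPM in EAE and 1656 to 1729 CPM in naive cortex, and the summed erythrocyte markers were at 81.5 to 306 CPM in treated EAE, 6.46 to 19.1 CPM in EAE and 104 to 138 CPM in naive cortex. Summed monocyte markers were at 6.69 to 16.2 CPM in treated EAE, 13.4 to 106 CPM in EAE and 6.45 to 7.34 CPM in naive cortex. EAE libraries were thus below both others in excitatory neuron and erythrocyte markers and above naive ones in monocyte markers, while the inhibitory neuron sums overlapped, at 707 to 873 CPM in treated EAE, 686 to 812 CPM in EAE and 744 to 863 CPM in naive cortex. Summed oligodendrocyte markers varied most in the treated group, at 2749, 4411 and 9056 CPM in replicates 1, 2 and 3. Among all marker genes, S100a4 rose in EAE against naive cortex, Hbb-bs and Hba-a2 fell, and Hba-a2 rose in treated EAE against EAE.

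LXRs are nuclear receptors that sense oxysterols, the oxidised products of cholesterol, and bind DNA together with retinoid X receptors. They switch on genes that move cholesterol out of cells. In brain, Abca1 loads lipid onto apolipoprotein E, which is made mainly by astrocytes and, in disease, by microglia. The particles are taken up by neurons and other cells through lipoprotein receptors, some of which Mylip marks for degradation.

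Abca1 was the member called in both disease comparisons, and the 250 bases before its RefSeq start are shown as context. Nothing measured here concerns the promoter itself. They lie at chr4:53159896-53160145 of GRCm38.p6 and are written along the gene, on the minus strand, with a motif match in capitals. A direct repeat of a hexamer with a spacer of 4 bases (DR4) is the element that LXR and its partner are known to bind. The motif searched was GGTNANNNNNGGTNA on both strands of windows of 300 bases around RefSeq starts. It contains the stricter consensus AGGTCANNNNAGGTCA, so that any window with the strict form also counts for the relaxed one. The relaxed form was in 236 of 32851 windows of all genes (0.718%), and the strict form was in 5 (0.015%).
Abca1 promoter: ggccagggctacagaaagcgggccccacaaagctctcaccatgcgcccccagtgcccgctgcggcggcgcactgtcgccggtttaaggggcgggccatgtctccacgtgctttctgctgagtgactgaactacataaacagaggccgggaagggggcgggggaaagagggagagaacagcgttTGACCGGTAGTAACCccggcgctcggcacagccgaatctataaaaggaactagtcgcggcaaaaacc

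RefSeq windows were available for 7 of the 10 genes, 10 windows in all, and the relaxed motif was in the window of 1 of them, Abca1. None held the strict form. In a wider list of 25 genes known as LXR targets, 18 had a window (23 windows), and the relaxed motif was found for 3: Acsl3 and Fasn, which act in fatty acid metabolism, and Srebf1, the regulator of fatty acid synthesis. The 4 matches are set side by side below to compare their letters. Each is given along its gene, at chr4:53159940-53159969 (minus strand) for Abca1, chr11:60210631-60210660 (minus strand) for Srebf1, chr11:120824750-120824779 (minus strand) for Fasn and chr1:78657706-78657735 (plus strand) for Acsl3, with the motif in capitals.
Abca1: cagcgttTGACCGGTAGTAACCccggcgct
Srebf1: acgacagTGACCGCCAGTAACCccagcgcg
Fasn: gccacgaTGACCGGTAGTAACCccgcctga
Acsl3: cgcagaaTGACCCATAGTAACCtcgccccg

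All 4 matches read on the strand opposite to their gene, where the Abca1 element is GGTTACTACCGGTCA. Abca1 and Fasn hold the same 15 capitals, while Srebf1 and Acsl3 each differ from Abca1 at 2 bases, both in the run of N between the GGTNA parts of the motif. The last base of that run is the first base of the second hexamer of the DR4, and Acsl3 differs from Abca1 there. The match ended 53 bases before the start in Abca1, 168 bases before it in Srebf1, 211 in Fasn and 98 in Acsl3. Of these 4 genes, Abca1 and Srebf1 passed the test both in EAE against naive cortex and in treated EAE against EAE, as described further on, while Fasn and Acsl3 passed it in neither. Fasn, with the same motif letters as Abca1, gave a log2 fold change of -0.04 for EAE over naive (edgeR adjusted p = 0.862) and 0.05 for treated EAE over EAE (edgeR adjusted p = 0.791). Acsl3 gave 0.26 (edgeR adjusted p = 0.268) and -0.24 (edgeR adjusted p = 0.322) in these comparisons. A match of letters is a description of these windows and does not show binding.

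Neither receptor passed the threshold, an edgeR adjusted p under 0.05 over all genes tested, in any comparison. Nr1h2 (chromosome 7, 44549616 to 44553951, minus strand) encodes LXR beta, the widely expressed form. Its values were 45.8, 50.4 and 58.3 CPM in treated EAE, 48.5, 51.0 and 53.8 CPM in EAE and 46.7, 49.98 and 51.3 CPM in naive cortex. The 3 groups overlapped. The log2 fold change of EAE over naive was 0.05 (SE 0.092, 95% interval -0.16 to 0.26, edgeR adjusted p = 0.846) and that of treated EAE over EAE was 0.01 (95% interval -0.20 to 0.22, edgeR adjusted p = 0.973). These intervals leave out a change of the size seen for Abca1 below.

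Nr1h3 (chromosome 2, 91184061 to 91202834, minus strand) encodes LXR alpha, best known from liver, fat and macrophages, and was the member with the fewest counts. It stood at 2.03, 3.06 and 4.26 CPM in treated EAE, 2.82, 3.88 and 3.79 CPM in EAE and 2.73, 2.05 and 2.58 CPM in naive cortex. All EAE libraries were above all naive ones, though EAE replicate 1 exceeded naive replicate 1 only narrowly, and treated EAE spanned the values of both. The log2 fold change was 0.51 for EAE over naive (95% interval -0.11 to 1.12, edgeR adjusted p = 0.409) and -0.17 for treated EAE over EAE (95% interval -0.79 to 0.44, edgeR adjusted p = 0.818). Its exons share 34 bases, 1.35% of their length, with Gm13783 on the same strand.

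Abca1, the exporter that passes cholesterol and phospholipid to apolipoproteins, rose in EAE cortex and fell in treated EAE. The gene lies on chromosome 4 (53030787 to 53159895, minus strand). Treated EAE libraries had 44.7, 48.2 and 50.5 CPM, EAE libraries 82.7, 108 and 87.1 CPM, and naive libraries 40.8, 46.4 and 49.6 CPM. The EAE group stood clear of both others, and 2 of the 3 treated libraries lay inside the naive range. EAE averaged 92.5 ± 13.4 CPM against 45.6 ± 4.44 CPM in naive cortex (SD, n = 3 each), a 2.03-fold level. The log2 fold change was 1.02 (SE 0.112, 95% interval 0.77 to 1.27, edgeR adjusted p = 0.0114). Treated EAE averaged 47.8 ± 2.91 CPM against the same EAE libraries, 0.517 of their level. There the log2 fold change was -0.95 (SE 0.111, 95% interval -1.20 to -0.70, edgeR adjusted p = 0.0238). Treated EAE over naive gave 0.07 (95% interval -0.18 to 0.32, edgeR adjusted p = 1.0).

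**Figure D1:**
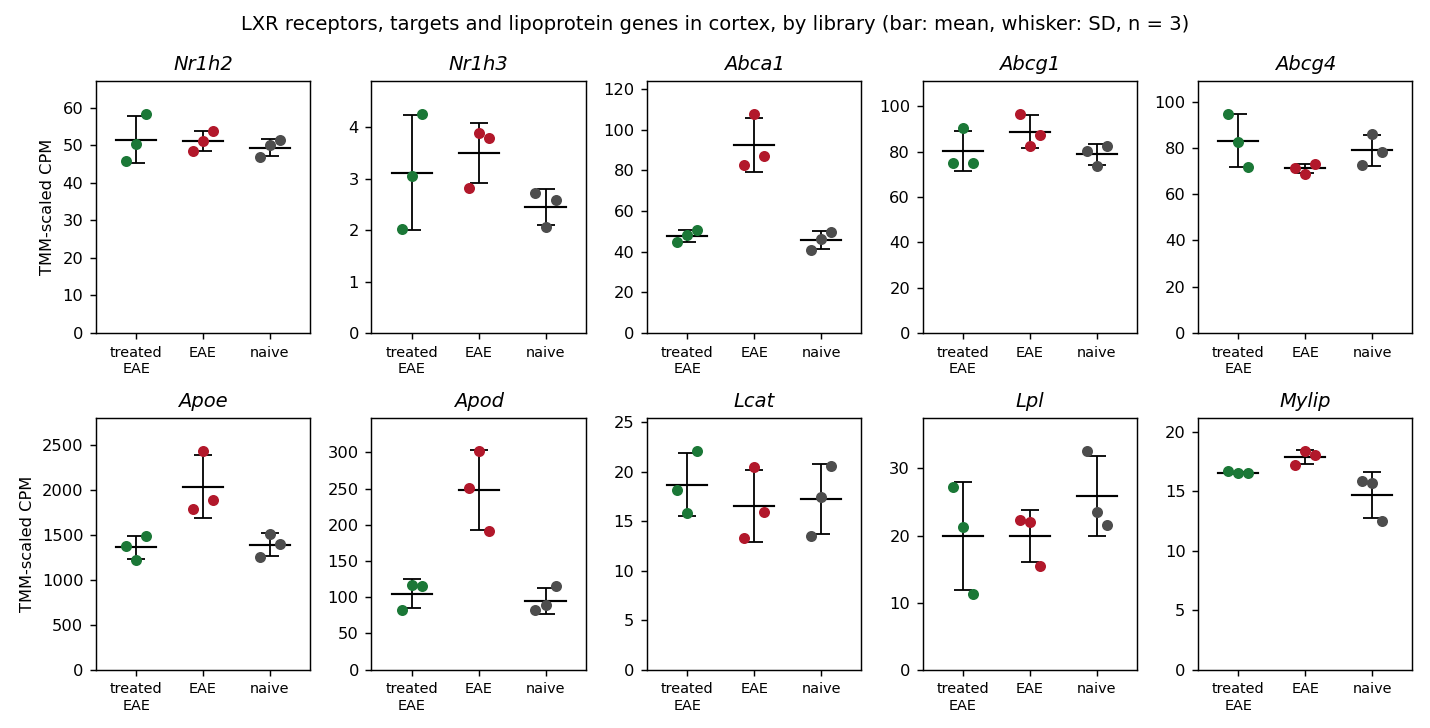
TMM-scaled CPM of the 10 genes in each library of treated EAE, EAE and naive cortex; points are libraries, bars means and whiskers SD (n = 3 each). Abca1 and Apod sit higher in all 3 EAE libraries than in any other, at 82.7 to 108 CPM and 191 to 302 CPM, while Nr1h2 lies between 45.8 and 58.3 CPM in all 9.

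The Abca1 rise was past the threshold in 7 of 9 fits that each left out 1 library, and was lost without naive replicate 1 (edgeR adjusted p = 0.0705) or naive replicate 2 (edgeR adjusted p = 0.0577). The fall in treated EAE was past it in 4 of those 9 fits. It was lost without treated replicate 1 (edgeR adjusted p = 0.0506), treated replicate 2 (0.0895), treated replicate 3 (0.0544), EAE replicate 3 (0.0782) or naive replicate 2 (0.0645), all edgeR adjusted p, with log2 fold changes between -1.04 and -0.83 over all alternatives. With only the 2 groups in the fit its edgeR adjusted p was 0.0736, and with the replicate number as a block it was 0.0101 in all 9 libraries and 0.0516 in the 2 groups.

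In bulk tissue, fewer cells of a type and less RNA per cell cannot be told apart, and some marker sums differed between the groups. The microglial sum was 307 to 365 CPM in treated EAE, 298 to 592 CPM in EAE and 270 to 330 CPM in naive cortex, with 0 of 6 genes past the threshold in any comparison. The 3 EAE libraries had microglial sums of 298, 592 and 383 CPM and monocyte sums of 13.4, 46.4 and 106 CPM. Abca1 was highest in EAE replicate 2, which also had the highest microglial sum. EAE replicate 1, with 82.7 CPM of Abca1, had a microglial sum below that of every treated library. The monocyte sum was highest in EAE replicate 3. The astrocyte marker Gfap had 175, 235 and 159 CPM in treated EAE, 262, 627 and 402 CPM in EAE and 99.6, 173 and 210 CPM in naive cortex. Within EAE and within naive cortex Gfap ran in the same order as Abca1, and in treated EAE it did not. The other astrocyte markers (Aqp4, Slc1a3, Slc1a2, Aldh1l1 and Gja1) overlapped between EAE and both other groups. The summed general neuronal markers were at 4541 to 5188 CPM in treated EAE, 3706 to 4357 CPM in EAE and 4366 to 4872 CPM in naive cortex. The part of these marker differences in the Abca1 result was not tested.

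The transporters of the G subfamily behaved differently from Abca1. Abcg1 (chromosome 17, 31057675 to 31117988, plus strand), a classic LXR target that moves sterols to lipid-bearing lipoproteins, had 75.0, 90.4 and 75.1 CPM in treated EAE, 96.7, 82.5 and 87.2 CPM in EAE and 80.5, 73.7 and 82.3 CPM in naive cortex. EAE lay above naive in each library, but EAE replicate 2 and naive replicate 3 were almost equal, and treated EAE overlapped both. The log2 fold change was 0.17 for EAE over naive (SE 0.094, 95% interval -0.04 to 0.38, edgeR adjusted p = 0.409) and -0.15 for treated EAE over EAE (95% interval -0.36 to 0.06, edgeR adjusted p = 0.506). The upper bound of the first, 0.38, is below the lower bound of Abca1, 0.77.

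Abcg4 (chromosome 9, 44273188 to 44288615, minus strand), the relative of Abcg1 found mainly in the nervous system, pointed the other way in its means. It had 94.7, 82.6 and 71.8 CPM in treated EAE, 71.3, 68.9 and 73.0 CPM in EAE and 72.8, 86.1 and 78.1 CPM in naive cortex. The groups overlapped in every comparison. Its log2 fold change was -0.15 for EAE over naive (95% interval -0.38 to 0.07, edgeR adjusted p = 0.512) and 0.22 for treated EAE over EAE (95% interval -0.00 to 0.45, edgeR adjusted p = 0.335).

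Apoe (chromosome 7, 19696109 to 19699188, minus strand), the main apolipoprotein made in brain, was at its highest in the EAE libraries but missed the threshold. Treated EAE had 1371, 1225 and 1487 CPM, EAE had 1784, 2436 and 1890.4 CPM, and naive cortex had 1256, 1512 and 1396 CPM. Every EAE library was above every treated and naive library. EAE averaged 2037 ± 349.7 CPM and naive cortex 1388 ± 128 CPM (SD, n = 3 each), with a log2 fold change of 0.55 (SE 0.13, 95% interval 0.26 to 0.84, edgeR adjusted p = 0.0762). Treated EAE averaged 1361 ± 131 CPM (SD, n = 3), with a log2 fold change over EAE of -0.58 (SE 0.13, 95% interval -0.87 to -0.29, edgeR adjusted p = 0.106). With DESeq2 both differences passed, at adjusted p = 0.00295 and 0.00231, and EAE over naive also passed in the fit of 2 groups with the replicate block (edgeR adjusted p = 0.0144). Summed astrocyte markers overlapped between groups, at 3758 to 5338 CPM in treated EAE, 4194 to 6138 CPM in EAE and 4361 to 4878 CPM in naive cortex, with 0 of 6 past the threshold. Among them only Gfap, a filament protein of reactive astrocytes, separated the groups as Apoe did, with 175, 235 and 159 CPM in treated EAE, 262, 627 and 402 CPM in EAE and 99.6, 173 and 210.3 CPM in naive cortex. Aqp4, Slc1a3, Slc1a2, Aldh1l1 and Gja1 overlapped between EAE and both other groups. The astrocyte sum (6138 CPM) and the microglial sum (592 CPM) were highest in EAE replicate 2, the library with most Apoe, and their part in the Apoe result was not tested.

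Apod (chromosome 16, 31296192 to 31314808, minus strand) encodes apolipoprotein D, a lipocalin that carries small lipids and is made in brain by oligodendrocytes, astrocytes and cells around vessels and in the meninges. It rose in EAE cortex by more than any other member. The values were 82.1, 117 and 116 CPM in treated EAE, 251, 302 and 191 CPM in EAE and 81.8, 88.6 and 115 CPM in naive cortex. All EAE libraries were above all others, and the treated and naive groups overlapped. EAE averaged 248 ± 55.6 CPM against 95.3 ± 17.7 CPM in naive cortex (SD, n = 3 each), a 2.61-fold level with a log2 fold change of 1.38 (SE 0.206, 95% interval 0.92 to 1.85, edgeR adjusted p = 0.028).

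Apod averaged 105 ± 19.9 CPM in treated EAE (SD, n = 3). The log2 fold change over EAE was -1.24 (SE 0.206, 95% interval -1.71 to -0.78), which missed the threshold with edgeR (adjusted p = 0.0667) and passed it with DESeq2 (adjusted p = 3.1e-07). Treated EAE over naive gave 0.14 (95% interval -0.32 to 0.60, edgeR adjusted p = 1.0). The rise in EAE was past the threshold in 5 of the 9 fits without 1 library and was lost without EAE replicate 2 (edgeR adjusted p = 0.0745) or naive replicate 1 (0.123), 2 (0.109) or 3 (0.0585), all edgeR adjusted p. It was also lost in the fit of 2 groups with the replicate block (edgeR adjusted p = 0.0866).

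The sum of meningeal fibroblast markers (Dcn, Lum, Col1a1, Col1a2 and Ptgds) was, like Apod, higher in all EAE libraries than in any naive one. It was 665, 477 and 226 CPM in treated EAE replicates 1 to 3, 869, 1157 and 404 CPM in EAE and 223, 317 and 368 CPM in naive cortex, with 0 of 5 past the threshold. Ptgds made up most of the EAE sums (818, 1086 and 366 CPM), and Dcn and Lum overlapped between EAE and naive cortex. Within EAE and within naive cortex the fibroblast sums ran in the same order as Apod. In treated EAE they did not, as replicate 1 had the highest sum and the lowest Apod (82.1 CPM). Oligodendrocyte markers summed to 2749 to 9056 CPM in treated EAE, 4937 to 5727 CPM in EAE and 4508 to 6853 CPM in naive cortex. Choroid plexus markers summed to 7.38 to 16.8 CPM in treated EAE, 24.7 to 891 CPM in EAE and 11.4 to 43.8 CPM in naive cortex. The part of these marker differences in the Apod result was not tested.

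The enzymes that remodel lipoproteins gave no call. Lcat (chromosome 8, 105939551 to 105943382, minus strand) esterifies cholesterol on lipoprotein particles. It had 18.1, 15.8 and 22.1 CPM in treated EAE, 13.3, 20.5 and 15.9 CPM in EAE and 13.5, 17.5 and 20.6 CPM in naive cortex, and the groups overlapped throughout. Its log2 fold change was -0.05 for EAE over naive (95% interval -0.50 to 0.40, edgeR adjusted p = 0.937) and 0.17 for treated EAE over EAE (95% interval -0.28 to 0.62, edgeR adjusted p = 0.747).

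Lpl (chromosome 8, 68880491 to 68907448, plus strand), lipoprotein lipase, frees fatty acids from triglyceride-rich particles and is known as an LXR target. It had 27.3, 21.3 and 11.3 CPM in treated EAE, 22.3, 21.96 and 15.4 CPM in EAE and 32.7, 23.4 and 21.6 CPM in naive cortex. Replicate 3 was the lowest of its group in all 3 groups. The log2 fold change was -0.38 for EAE over naive (95% interval -1.08 to 0.31, edgeR adjusted p = 0.597) and 0.01 for treated EAE over EAE (95% interval -0.69 to 0.71, edgeR adjusted p = 0.994), the widest intervals among the 10 genes. The first interval, from the main fit (SE 0.306), includes a fall as large as the rise of Abca1. With the replicate number as a block, EAE over naive again gave -0.38, with an SE of 0.161 in all 9 libraries and 0.108 in the 2 groups. It missed the threshold in both (edgeR adjusted p = 0.271 and 0.103).

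Mylip (chromosome 13, 45389742 to 45412022, plus strand), also called Idol, is switched on by LXR and sends lipoprotein receptors to degradation. It had 16.7, 16.5 and 16.5 CPM in treated EAE, 17.2, 18.4 and 18.0 CPM in EAE and 15.8, 15.7 and 12.5 CPM in naive cortex. The groups did not overlap in any of the 3 comparisons, with treated EAE between EAE and naive. The differences were small: the log2 fold change was 0.28 for EAE over naive (SE 0.103, 95% interval 0.05 to 0.51, edgeR adjusted p = 0.212), -0.11 for treated EAE over EAE (95% interval -0.34 to 0.12, edgeR adjusted p = 0.67) and 0.17 for treated EAE over naive (95% interval -0.06 to 0.40, edgeR adjusted p = 1.0).

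Per length of gene, Apoe stood far above the rest. In naive cortex its level was 649 ± 59.9 CPM per kilobase of exon (SD, n = 3), rank 6 of 16634 genes with a length. In treated EAE it was 637 ± 61.3 (rank 9) and in EAE 953 ± 164 CPM per kilobase (rank 2). Apod followed at 40.8 ± 7.73 CPM per kilobase in treated EAE, 96.3 ± 21.6 in EAE and 37.0 ± 6.88 in naive cortex. Abcg4, Nr1h2, Lcat and Abcg1 came next in naive cortex, between 15.2 and 10.8 CPM per kilobase, with neighbours in that order overlapping. Mylip (4.54 ± 0.589) and Abca1 (4.399 ± 0.429) also overlapped there, and Lpl (2.47 ± 0.566) and Nr1h3 (0.976 ± 0.141) were lowest.

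The order of Abca1 and Mylip differed between groups. Abca1 reached 8.93 ± 1.29 CPM per kilobase in EAE, above Mylip at 5.53 ± 0.191, and the libraries of these genes did not overlap. In treated EAE, Mylip at 5.12 ± 0.0273 was above Abca1 at 4.62 ± 0.281 CPM per kilobase (SD, n = 3 each), again with no overlap. LXR beta exceeded LXR alpha in each group: Nr1h2 was at 15.4 against 1.24 CPM per kilobase for Nr1h3 in treated EAE, 15.2 against 1.39 in EAE and 14.7 against 0.976 in naive cortex. Divided by the longest transcript instead of all exons, naive levels were 986 for Apoe, 24.7 for Nr1h2 and 6.29 CPM per kilobase for Lpl, which put Lpl above Mylip (4.79) and Abca1 (4.44). The order of Nr1h2 and Abcg4 depended on this length too.

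**Figure D2:**
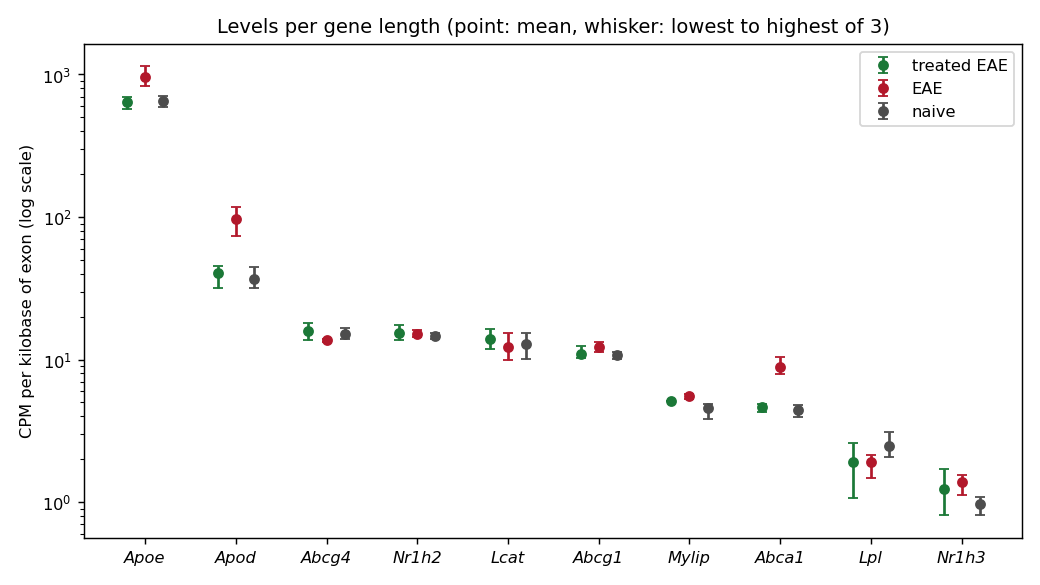
Level of each gene per kilobase of exon (log axis) in treated EAE, EAE and naive cortex; points are means and whiskers run from the lowest to the highest of 3 libraries. Apoe is highest in every group, at 637, 953 and 649 CPM per kilobase, and the EAE point of Abca1 stands apart at 8.93.

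Across the 10 genes, 2 rose in EAE against naive cortex (Abca1 and Apod) and 0 fell, where 0.735% of all 18644 genes tested rose and 0.252% fell (0.987% in either direction). Both also passed the fold rule of the study's design text, an absolute log2 fold change above 1, which 0.434% of genes met together with the edgeR threshold. In 6 genes (Abca1, Abcg1, Apoe, Apod, Nr1h3 and Mylip) all EAE libraries were above all naive ones, against 12.2% of genes tested. The median log2 fold change was 0.23 over the 10 genes and -0.005 over all genes, and 7 of the 10 were above 0.

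In treated EAE against EAE, 1 of the 10 fell (Abca1) and 0 rose, where 0.129% of all genes fell and 0.0912% rose (0.22% in either direction). Its log2 fold change of -0.95 stayed just short of the study's fold rule, which 0.059% of genes met. All treated libraries were below all EAE libraries for 4 genes (Abca1, Apoe, Apod and Mylip), against 9.28% of genes tested, and the median was -0.13 against 0.003 over all genes. Both comparisons use the same 3 EAE libraries, so that their values for a gene are not independent.

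In treated EAE against naive cortex, 0 of the 10 genes passed the edgeR threshold, as did 0.0% of all genes tested. None of the 10 had an unadjusted p under 0.05, against 1.71% of all genes, and DESeq2 called 3 genes in all. The groups were apart for 1 member, Mylip, against 3.51% of genes that were higher in this way. The median log2 fold change of the 10 genes was 0.07 and that of all genes 0.01. For Abca1 the interval of -0.18 to 0.32 leaves out the difference between EAE and naive cortex, as does that of Apod, -0.32 to 0.60.

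**Figure D3:**
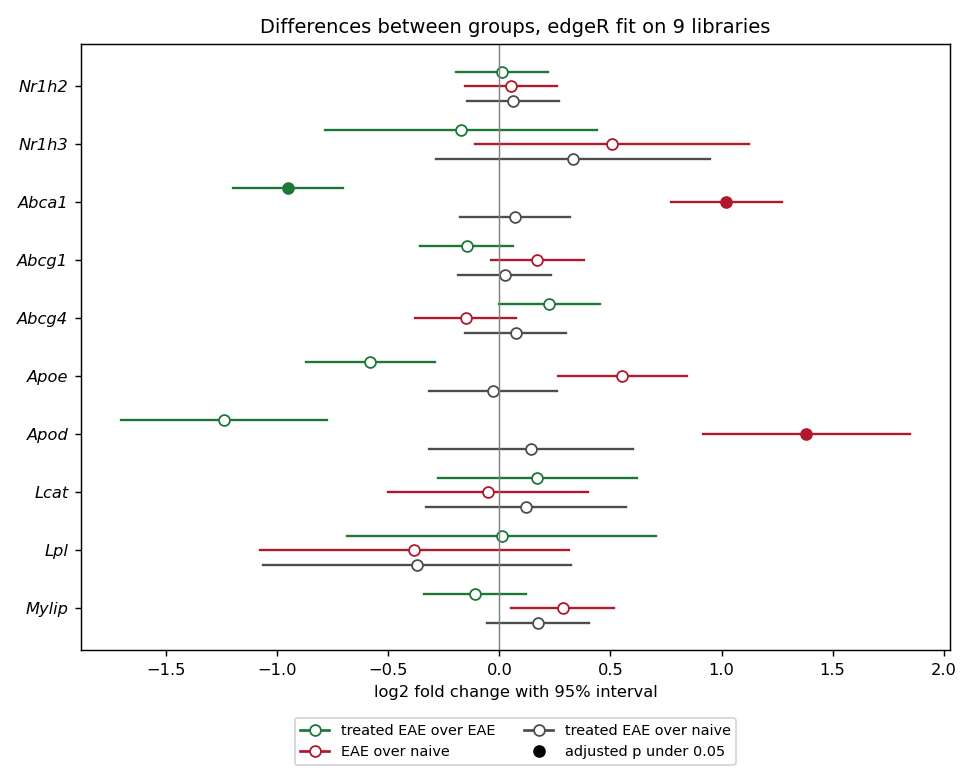
Log2 fold changes of the 10 genes with 95% intervals from the edgeR fit on 9 libraries, for treated EAE over EAE, EAE over naive and treated EAE over naive; filled points passed an adjusted p of 0.05. Abca1 is filled in the first 2 (-0.95 and 1.02) and Apod in EAE over naive only (1.38).

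Further genes of the pathway were read from 10 lists with 159 different genes, of which 141 were tested. The lists were written with earlier results of these data known. In EAE against naive cortex 7 of these genes rose and 11 fell, where 0.735% of all genes tested rose and 0.252% fell. In treated EAE against EAE 6 rose and 1 fell, where 0.0912% of all genes rose and 0.129% fell. In treated EAE against naive cortex 0 passed. The same shares of all genes stand beside the counts of each list below. All 16 named list genes past the threshold in EAE against naive cortex were lost from the calls without naive replicate 1, 14 without naive replicate 2 and 15 without naive replicate 3. Of the 7 called in treated EAE against EAE, each lost its call in at least 5 of the 9 fits without 1 library. In that comparison the list genes called numbered 4 (3 higher and 1 lower) with the replicate block in all 9 libraries, 0 in both fits of only the 2 groups, with and without the block, and 23 with DESeq2.

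**Figure D4:**
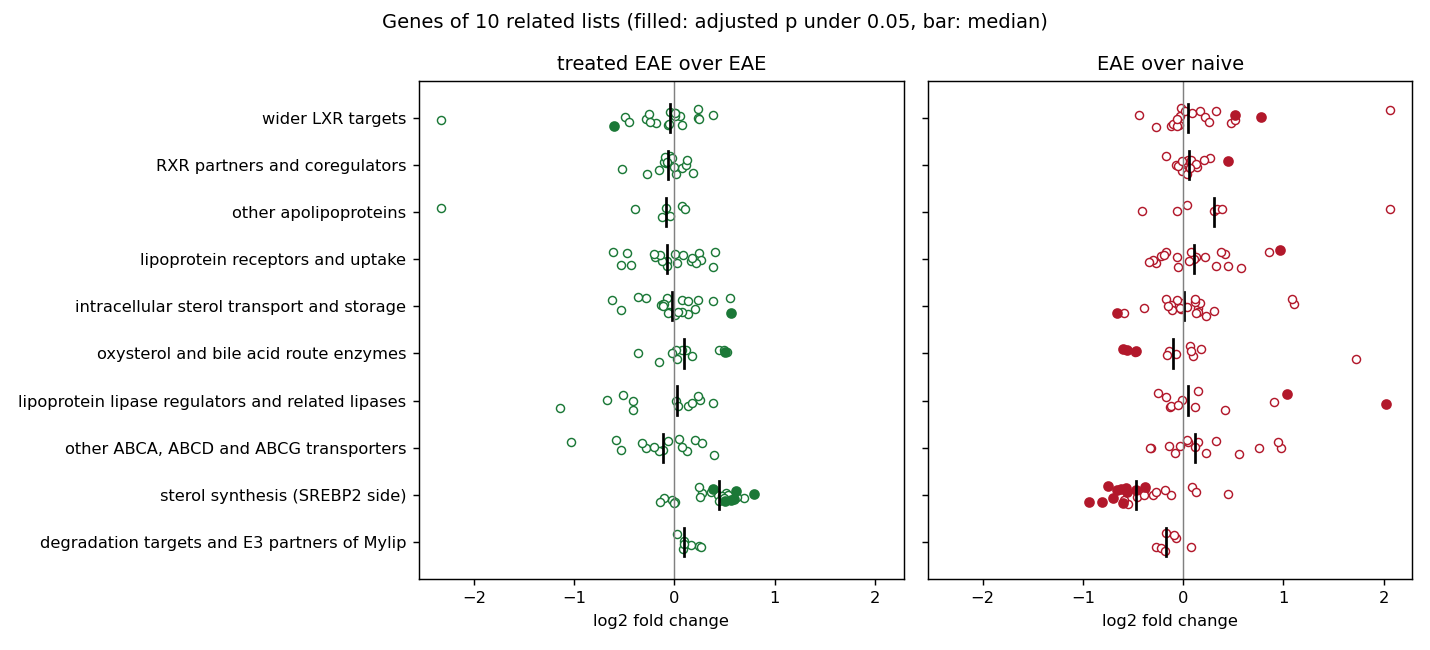
Log2 fold change of every tested gene in 10 related lists, for treated EAE over EAE and EAE over naive; filled points passed an edgeR adjusted p of 0.05 and bars are list medians. Medians lie between -0.17 and 0.31 in EAE over naive except for sterol synthesis (-0.47); Msr1 is counted in its median and left off the plot because its naive counts are near 0.

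Of 20 tested genes among 25 wider LXR targets, 2 rose in EAE against naive cortex, and the list's median was 0.05. Srebf1, the regulator of fatty acid synthesis whose promoter match was printed with that of Abca1, had 59.8, 62.8 and 71.0 CPM in treated EAE, 92.2, 108 and 94.8 CPM in EAE and 63.2, 71.7 and 71.1 CPM in naive cortex. The EAE group stood above both others. Its log2 fold change was 0.52 for EAE over naive (SE 0.091, edgeR adjusted p = 0.0342) and -0.61 for treated EAE over EAE (SE 0.091, edgeR adjusted p = 0.0456). The first was lost in 6 of 9 fits without 1 library, those without treated replicate 2, EAE replicates 2 or 3 and each naive replicate, and the second in all 9.

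Mertk, the receptor by which phagocytes take up dying cells, was the other target that rose, with 58.8 ± 6.89 CPM in treated EAE, 83.0 ± 13.1 in EAE and 48.3 ± 3.77 in naive cortex (SD, n = 3 each; log2 fold change of EAE over naive 0.78, edgeR adjusted p = 0.028). Treated EAE over EAE gave -0.50 (edgeR adjusted p = 0.136). No other target tested passed. Apoc1, singled out after its values were seen as the gene farthest from 0, gave 2.07 for EAE over naive (edgeR adjusted p = 0.154) and -2.33 for treated EAE over EAE (edgeR adjusted p = 0.16).

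Of 16 receptor partners and coregulators, 1 rose in EAE. Rxra, a retinoid X receptor that pairs with LXR, had 39.6 ± 1.94 CPM in treated EAE, 47.8 ± 2.13 in EAE and 35.0 ± 2.03 in naive cortex (SD, n = 3 each). Its log2 fold change was 0.45 for EAE over naive (SE 0.073, edgeR adjusted p = 0.028) and -0.27 for treated EAE over EAE (edgeR adjusted p = 0.145). Of 7 tested genes among 18 other apolipoproteins, 0 passed. Clu (apolipoprotein J) was at 825 ± 49.7 CPM in treated EAE, 1085 ± 198 in EAE and 827 ± 103 in naive cortex, with EAE apart from both groups and edgeR adjusted p of 0.192 for EAE over naive and 0.217 for treated EAE over EAE.

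Among 21 tested lipoprotein receptors, Stab1 and Msr1 rose in EAE and 0 fell. Stab1, a scavenger receptor, had 23.7 ± 1.8 CPM in treated EAE, 34.2 ± 7.76 in EAE and 17.6 ± 1.23 in naive cortex (log2 fold change of EAE over naive 0.96, edgeR adjusted p = 0.028). Msr1, the macrophage scavenger receptor, had 0.342, 0.64 and 0.331 CPM in treated EAE, 0.617, 1.52 and 3.58 CPM in EAE and 0, 0 and 0.138 CPM in naive cortex (edgeR adjusted p = 0.0482). The Msr1 call was lost in 8 of 9 fits without 1 library, and the Stab1 call in 5. Stab1 and Msr1 are both known from macrophages, and monocyte and microglial marker sums were given above for the same libraries. Stab1 had 27.0, 42.4 and 33.2 CPM in EAE replicates 1 to 3. The part of these marker differences in the Stab1 and Msr1 results was not tested. Of the 7 targets and partners of Mylip, 0 passed. Vldlr, a lipoprotein receptor of brain, was at 97.8 ± 10.5 CPM in treated EAE, 87.0 ± 4.18 in EAE and 102 ± 3.63 in naive cortex (SD, n = 3 each; edgeR adjusted p = 0.223 for EAE over naive).

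Among 12 tested lipase regulators and lipases, Angptl4 and Pnpla2 rose in EAE. Angptl4, a secreted inhibitor of lipoprotein lipase, had 2.83 ± 0.774 CPM in treated EAE, 6.27 ± 2.9 in EAE and 1.54 ± 0.338 in naive cortex, a log2 fold change of EAE over naive of 2.03 (SE 0.35, edgeR adjusted p = 0.0334). Pnpla2, the triglyceride lipase of lipid droplets, had 21.9 ± 3.85 CPM in treated EAE, 34.8 ± 2.56 in EAE and 17.0 ± 1.17 in naive cortex, which was 1.03 higher in EAE than in naive cortex on the log2 scale (SE 0.13, edgeR adjusted p = 0.0118). In treated EAE over EAE these gave -1.14 (edgeR adjusted p = 0.167) and -0.67 (edgeR adjusted p = 0.0851), and their groups did not overlap. No other ABC transporter of 15 tested passed. Abca4 and Abca9 had the largest values, 0.98 (edgeR adjusted p = 0.114) and 0.95 (edgeR adjusted p = 0.0775) for EAE over naive.

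Of 12 enzymes on the oxysterol and bile acid routes, 0 rose in EAE, and Cyp51 and Dhcr7 were among those that fell (edgeR adjusted p = 0.0409 and 0.026). Both act in cholesterol synthesis and are in the synthesis list too. Ch25h, which makes an oxysterol ligand of LXR, was at 1.13 ± 0.696 CPM in treated EAE, 1.44 ± 0.883 in EAE and 0.441 ± 0.156 in naive cortex (log2 fold change of EAE over naive 1.72, 95% interval 0.29 to 3.15, edgeR adjusted p = 0.223). Of 22 genes of intracellular sterol transport, Stard4, a sterol carrier, fell in EAE and rose in treated EAE against EAE. Tspo, a mitochondrial sterol-binding protein, gave 1.09 for EAE over naive (edgeR adjusted p = 0.0596).

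The sterol synthesis list went against Abca1 in direction: 11 of 23 genes fell and 0 rose in EAE against naive cortex (median -0.47), and 6 rose and 0 fell in treated EAE against EAE (median 0.44). The block and the 2-group fits reduced the calls in treated EAE against EAE, as given above. In EAE against naive cortex, genes of all lists called lower numbered 12 with the block in all 9 libraries. They numbered 13 with only the 2 groups in the fit and 19 with the block in the 2 groups. Hmgcs1, which makes the HMG-CoA used for sterols, had 310.4, 240.4 and 291 CPM in treated EAE, 156, 171 and 158 CPM in EAE and 309.6, 303 and 317 CPM in naive cortex. Srebf2, the regulator of this list, had 289 CPM in treated EAE, 222 ± 5.45 in EAE and 289 ± 11.6 in naive cortex (SD, n = 3 each). Its log2 fold changes were -0.38 for EAE over naive (edgeR adjusted p = 0.028) and 0.38 for treated EAE over EAE (edgeR adjusted p = 0.0457).

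The genes most like Abca1 over the 9 libraries, by Pearson's r of log2 CPM among 15546 other genes, were Usp53 (r = 0.988), Phyhd1 (0.987), Ddit4 (0.985), Slc8b1 (0.985) and Nfkbia (0.981). For Apod they were Sf3b1 (r = 0.977), Retsat (0.972), Abca1 itself (0.971), Atp6v0e (0.968) and Usp53 (0.966). These r describe 9 libraries that share 3 groups. Sf3b1 moved far less than Apod, with a log2 fold change of 0.18 for EAE over naive (edgeR adjusted p = 0.202), since r takes no account of size. Nfkbia had 15.1 CPM in treated EAE, 29.5 in EAE and 12.7 in naive cortex as means, and rose in EAE by 1.22 (edgeR adjusted p = 0.0114).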

How the data were processed

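The authors deposited raw counts per gene symbol for 9 libraries. Per the series' design text and the submitters' processing notes, reads were checked with FastQC 0.11.8, trimmed with fastp, aligned with Hisat2 to mm10 and quantified with bowtie2. Annotation, strand setting and counting options: not given in the sources used here. Reads of genes that overlap on opposite strands therefore cannot be told apart, which touches Srebf1, Stab1, Tspo, Hmgcs1, Cyp51, Ch25h and Retsat, and Phyhd1 shares 47.0% of its exon length with Gm28035. The table has 9 more columns, left out because they match no sample. In each library 3.80 to 4.43 genes had a count of 2 for each gene with a count of 1, so counts may not be single fragments.

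The quasi-likelihood test of edgeR 4.0.16 (R 4.3.3; genes kept by filterByExpr, TMM scaling, robust glmQLFit) was run on all 9 libraries with group as the only factor (6 residual degrees of freedom). Benjamini-Hochberg adjustment covered 18644 genes, and a gene was called at an adjusted p under 0.05. Standard errors come from the fold change and its F statistic, and 95% intervals from the moderated degrees of freedom. CPM per kilobase uses the exons of GENCODE M21, and promoter windows are RefSeq's for GRCm38.p6. Log2 CPM for correlations used a prior count of 2.

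The labels number the brains and do not say that they are separate litters or cages, so p-values measure the spread between these samples. For same-numbered treated and untreated EAE libraries the deviations from group means had r of 0.175, 0.245 and 0.238. Differently numbered pairs of these groups gave -0.163 to -0.042. Same-numbered EAE and naive pairs gave 0.055, 0.114 and 0.36, and a differently numbered pair reached 0.218. Same-numbered treated and naive pairs gave -0.246, -0.121 and 0.199, and a differently numbered pair reached 0.349. The main fit did not use the numbers as pairs, and the replicate block was run as an alternative. In the 2-group fits with that block, the Abca1 fall (edgeR adjusted p = 0.0516) and the Apod rise (edgeR adjusted p = 0.0866) missed the threshold. Members and lists were chosen with earlier results of these data known. List genes named are those past the threshold (at most 6 per list and comparison) and the 2 with the largest change in EAE against naive cortex. Results for some list genes are not reported here. For each member called there, the 5 most correlated genes are named. Alternatives were DESeq2 1.42.0, other scalings and filters, fits of 2 groups, replicate blocks and leaving out each library.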

Additional observations from a re-analysis of the deposited data

How the results depend on the processing

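The number of genes past the threshold was 184 in EAE against naive cortex, 41 in treated EAE against EAE and 0 in treated EAE against naive cortex. DESeq2 gave 1042, 688 and 3. Fits of only the 2 groups gave 3 in treated EAE against EAE, and with the replicate block they gave 726 in EAE against naive cortex and 4 in treated EAE against EAE. With the replicate block in all 9 libraries the counts were 238, 46 and 0. Leaving out libraries gave 2 to 278 genes in EAE against naive cortex and 4 to 38 in treated EAE against EAE, so the adjusted p of a single gene moves with all the others. Naive replicate 1, the deepest library, gave the lowest count (2) when left out.

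Of the members past the threshold, Abca1 passed in 16 of 18 alternatives for EAE over naive and in 10 of 18 for treated EAE over EAE, and Apod in 13 of 18 for EAE over naive. Apart from the Abca1 and Apod values given in the report, the replicate block changed no member's call except that of Apoe. Abca1, Apoe and Apod kept their direction in the first 2 comparisons under every alternative run.

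Directions that turned belong to differences that never passed. Nr1h2 in treated EAE over EAE turned with total count scaling (-0.021), with the stricter CPM filter (-0.001) and with the replicate block in 2 groups (-0.002), and ranged from -0.086 to 0.078 when libraries were left out. Lpl in that comparison turned with total count scaling (-0.020), the CPM filter (-0.000) and the replicate block in 9 libraries (-0.048) or 2 groups (-0.065), and ranged from -0.291 to 0.289. Leaving out libraries also gave -0.457 to 0.049 for Nr1h3, -1.98 to 0.262 for Cd36, -0.851 to 0.214 for Ch25h and -0.199 to 0.01 for Ppara in treated EAE over EAE, and -0.235 to 0.104 for Lcat in EAE over naive. In treated EAE over naive it gave -0.013 to 0.131 for Abca1, -0.081 to 0.068 for Abcg1, -0.041 to 0.167 for Abcg4, -0.102 to 0.033 for Apoe, -0.036 to 0.131 for Nr1h2 and -0.036 to 0.268 for Lcat. The cause of these shifts was not tested. In treated EAE against EAE, 17 genes were called higher and 24 lower. With RLE scaling these were 14 and 24, and with total count scaling 13 and 24.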

Other observations

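Over the 45 pairs of the 10 genes, Pearson's r of log2 CPM across the 9 libraries was above 0 for 27 and below 0 for 18. The highest was between Abca1 and Apod (0.971), and Abca1 with Apoe gave 0.942. The lowest was between Nr1h2 and Lpl (-0.952), a pair in which no difference between groups was called. These values describe 9 libraries that share 3 groups, and the libraries also differ in oligodendrocyte and other marker sums.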
